A study of Saccharomyces cerevisiae with 12 samples.

Results

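The SUMO peaks near chromosome ends were the peaks whose summit lay within 30 kb of either end of a nuclear chromosome and farther than 250 bp from any tRNA gene. Across the 6 deposited peak lists, 249 of 3486 peaks met this rule, and they are called end peaks here. Their positions were taken against sacCer3 (R64), the S288C reference assembly. Chromatin immunoprecipitation followed by sequencing (ChIP-seq) had been performed using an antibody to Smt3, as SUMO is named in yeast, in the W303a strain (WT, MAT a). Cultures were grown at 30 °C in synthetic complete medium. There were 3 groups of 2 replicates: untreated WT, untreated ubc9-6, and WT given a heat shock at 37 °C for 12 min. The ubc9-6 strain has at UBC9 tandem copies of ubc9-1, an allele of the gene for the SUMO-conjugating enzyme, so that all sumoylation runs through a less active enzyme. Each immunoprecipitate had its own input library, and all groups share the antibody and the strain background.

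The content of the lists raised a doubt about their labels. Among 24 genes of the heat-shock response, the ubc9-6-labelled lists held a SUMO summit in the window that starts 800 bp before the start codon and stops 200 bp after it at 11 and 13 genes, HSP26, HSP104 and SSA4 among them. The WT untreated lists held one at 6 and 4 genes, and the lists labelled heat shock at 0 and 0. Of all 6002 protein genes, 9.51% and 10.8% had such a summit in the ubc9-6-labelled lists, 12.0% and 13.2% in WT untreated and 3.73% and 4.52% in labelled heat shock. The 0 counts are thus near the background of those short lists. By contrast, 11 and 13 of 24 lie far above the background of the ubc9-6-labelled lists. The labels are kept below, with the groups called ubc9-6-labelled and labelled heat shock. If the labels were exchanged, the values of those groups would trade places.

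Budding yeast telomeres end in irregular C1-3A repeats (TG1-3 on the other strand), which are bound by the protein Rap1. Rap1 recruits the Sir proteins, which silence nearby genes and also the mating-type cassettes HML and HMR. Next to the terminal repeats lies the X element, found at every end, with an origin of replication (ARS) consensus and an Abf1 site in its core. Many ends also carry a longer Y' element, which encodes a helicase-like protein (YRF1), and short tracts of telomeric repeat can lie between X and Y' or between Y' copies. Several telomere-bound proteins, Rap1 and Sir proteins among them, are known SUMO targets in yeast. The number of ends with Y' varies between strains, and the reads here came from W303 while the positions are those of S288C. The placement of reads that match several copies equally well is not given in the sources used here, so a peak in a repeat may stand for any of its near-identical copies.

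The R64 annotation gives 1 composite feature for each of the 32 chromosome ends, named by chromosome and arm (TEL03L is the left end of chromosome III). Of these, 15 hold an X element only and are 431 to 1098 bp long, and 17 hold X and Y' and are 5505 to 13897 bp long. Summits were sorted by position alone. A terminus summit lay inside the feature and at most 400 bp from the end. An X element summit lay no more than 500 bp from the inner edge of the feature. An internal repeat summit lay elsewhere in the feature, at most 100 bp from a telomeric repeat tract of 20 bp or more, and the remaining summits in the feature were called inside Y'. Silent cassette summits lay in HML or HMR or up to 500 bp from them, and all else was called other. Merging overlapping end peaks of the 6 lists gave 80 end regions, of which 17 were termini, 19 X elements, 6 internal repeats, 8 inside Y', 5 at silent cassettes and 25 other.

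The sequences at these summits are shown first because the classes differ in sequence. All sequences are from the R64 reference (RefSeq), read from the centromere side toward the chromosome end, which is the plus strand at right ends and the minus strand at left ends. The X elements carried one shared stretch of 15 bp. It was the 15-mer found in the most X element windows reaching 100 bp to each side of the summit, so these peaks chose it. It was present in 16 of the 19 windows, the median distance of its middle from the summit, counted toward the end, was 17.5 bp, and at 11 regions it lay at most 50 bp from the summit. The 4 examples below are the pairs of X-only and X with Y' ends with the highest WT fold enrichment in this class, chosen after their values were seen, and capitals mark the shared stretch.
TEL10R X element, chrX:745045-745165: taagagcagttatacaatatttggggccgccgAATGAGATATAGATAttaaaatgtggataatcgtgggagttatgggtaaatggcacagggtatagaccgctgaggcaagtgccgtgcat
TEL01L X element, chrI:541-661, minus strand: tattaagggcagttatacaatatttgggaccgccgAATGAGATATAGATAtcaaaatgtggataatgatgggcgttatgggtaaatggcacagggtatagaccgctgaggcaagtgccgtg
TEL04R X element, chrIV:1524775-1524895: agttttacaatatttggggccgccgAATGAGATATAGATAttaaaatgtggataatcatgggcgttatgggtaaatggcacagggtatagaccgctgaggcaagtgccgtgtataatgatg
TEL10L X element, chrX:7573-7693, minus strand: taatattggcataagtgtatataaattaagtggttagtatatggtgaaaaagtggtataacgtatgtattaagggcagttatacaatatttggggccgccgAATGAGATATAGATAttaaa

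The highest summits of the terminus and internal repeat classes lay in or beside telomeric repeat. Capitals mark matches to the Rap1 motif (ACACCC, any 2 bases, then ACA), read here on the other strand, and neighbouring matches can overlap. The motif lay up to 50 bp from the summit in 4 of 17 terminus regions and 5 of 6 internal repeat regions, and in none of the 19 X element, 8 inside Y', 5 silent cassette or 25 other regions. Of windows of the same 101 bp tiled over the 30 kb ends, 0.474% held it, against 0.0518% of windows over chromosome interiors. The motif is a piece of the telomeric repeat, and internal repeat regions were chosen for lying by such a tract, so their share was largely fixed by the rule of the class. The shorter telomeric repeat motif GTGTGGG, which overlaps the Rap1 motif, was found at 9 of 80 regions, as many as the Rap1 motif, against 0.758% of windows near ends.
TEL03L terminus, chrIII:165-265, minus strand: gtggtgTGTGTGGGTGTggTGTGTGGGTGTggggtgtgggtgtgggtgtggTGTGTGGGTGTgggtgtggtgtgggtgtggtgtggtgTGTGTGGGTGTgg
TEL08R terminus, chrVIII:562444-562544: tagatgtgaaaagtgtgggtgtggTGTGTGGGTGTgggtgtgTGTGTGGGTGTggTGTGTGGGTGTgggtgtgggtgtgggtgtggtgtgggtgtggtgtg
TEL12L internal repeat, chrXII:11166-11266, minus strand: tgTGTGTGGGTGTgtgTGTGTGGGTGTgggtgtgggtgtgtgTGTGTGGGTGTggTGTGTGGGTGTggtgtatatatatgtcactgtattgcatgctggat
TEL12L internal repeat, chrXII:5707-5807, minus strand: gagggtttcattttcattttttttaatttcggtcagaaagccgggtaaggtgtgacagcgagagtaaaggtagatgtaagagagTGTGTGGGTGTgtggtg

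Other termini had their summit outside repeat tracts, in the outer part of Y' except at TEL06R, an X-only end. At several of these ends, TEL15R and TEL16R among them, the reference holds no terminal repeat tract. At 4 of the 17 termini the summit window held the Reb1 motif TTACCCG (in capitals below, on the other strand), against 0.590% of windows near ends and 0.626% in interiors. The Y' copies are near-identical, so these are not 4 independent sequences. At the silent cassettes, 2 of 5 windows held the Abf1 motif, against 1.04% of windows near ends. The ARS consensus was held by 2 of 5, against 0.927%. Of the X element windows, 1 of 19 held the Abf1 motif and 2 of 19 the ARS consensus. Of the terminus windows, 1 of 17 held the Abf1 motif and 5 of 17 the ARS consensus. Capitals mark the ARS consensus in the HML example and the Abf1 motif in the HMR example.
TEL10L terminus, chrX:144-264, minus strand: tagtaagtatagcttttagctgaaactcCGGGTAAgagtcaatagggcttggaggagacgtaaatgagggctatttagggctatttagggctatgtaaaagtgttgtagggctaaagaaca
TEL13L terminus, chrXIII:188-308, minus strand: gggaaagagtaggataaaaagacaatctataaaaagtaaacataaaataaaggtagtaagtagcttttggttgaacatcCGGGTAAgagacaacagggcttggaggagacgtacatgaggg
HML at ARS301, chrIII:11194-11314, minus strand: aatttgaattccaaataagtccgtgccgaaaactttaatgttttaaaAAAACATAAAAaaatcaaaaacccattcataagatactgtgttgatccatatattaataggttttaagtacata
HMR at ARS317, chrIII:292720-292840: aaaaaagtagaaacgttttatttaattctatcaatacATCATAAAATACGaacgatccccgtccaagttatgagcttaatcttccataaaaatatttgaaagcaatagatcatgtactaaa

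End peaks were frequent in the WT untreated lists and in the ubc9-6-labelled lists, and rare in those labelled heat shock. Replicates 1 and 2 of WT untreated held 57 and 70 end peaks, the ubc9-6-labelled lists held 43 and 60, and the lists labelled heat shock held 7 and 12. The ranges of WT untreated and the ubc9-6-labelled group overlapped, while both lists labelled heat shock lay far below all others. The means were 63.5 ± 9.19 (SD, n = 2) for WT untreated, 51.5 ± 12.0 (n = 2) for the ubc9-6-labelled group and 9.5 ± 3.54 (n = 2) for labelled heat shock. An exact permutation test over lists (two-sided) gave p = 0.667 for the ubc9-6-labelled group against WT untreated and p = 0.333 for labelled heat shock against WT untreated. The latter is the smallest p that 2 lists against 2 allow, so no difference between groups could pass a threshold.

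The lists differed in length, from 302 to 842 peaks, so the share of each list was also compared. End peaks made up 7.98% and 8.31% of the nuclear peaks of the WT untreated lists, 7.17% and 8.46% of the ubc9-6-labelled lists, and 2.52% and 3.76% of those labelled heat shock. The share of the lists labelled heat shock was lower by 5.01 percentage points on average (exact permutation p = 0.333), and that of the ubc9-6-labelled lists by 0.33 points (exact permutation p = 1). The direction for the ubc9-6-labelled group rested on 1 library. Without its replicate 1, the share was 0.314 points above WT untreated. The direction for labelled heat shock depended on list length. Among the best 278 peaks of each list by q-value, its lists held 2.5 more end peaks than WT untreated on average, or 0.899 points more. That cut is the full nuclear length of labelled heat shock replicate 1. This list therefore lost no end peak, while the WT untreated lists lost their weaker peaks.

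The peak caller's values allowed the number of fragments at each summit to be recovered. The median end peak held 261 to 383 fragments, depending on the list, and the lowest 167 to 186, so the median summit carries a counting error of 5.11% to 6.19%. End peaks stood low in their lists by q-value. Their median percentile by q-value, counted from the weakest peak, was 24.5 and 39.0 in the WT untreated lists, 23.3 and 30.3 in the ubc9-6-labelled lists, and 4.30 and 4.55 in those labelled heat shock. Counting errors cover counting only, and how far fewer end peaks in the lists labelled heat shock reflect a limit of detection was not tested.

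**Figure D1:**
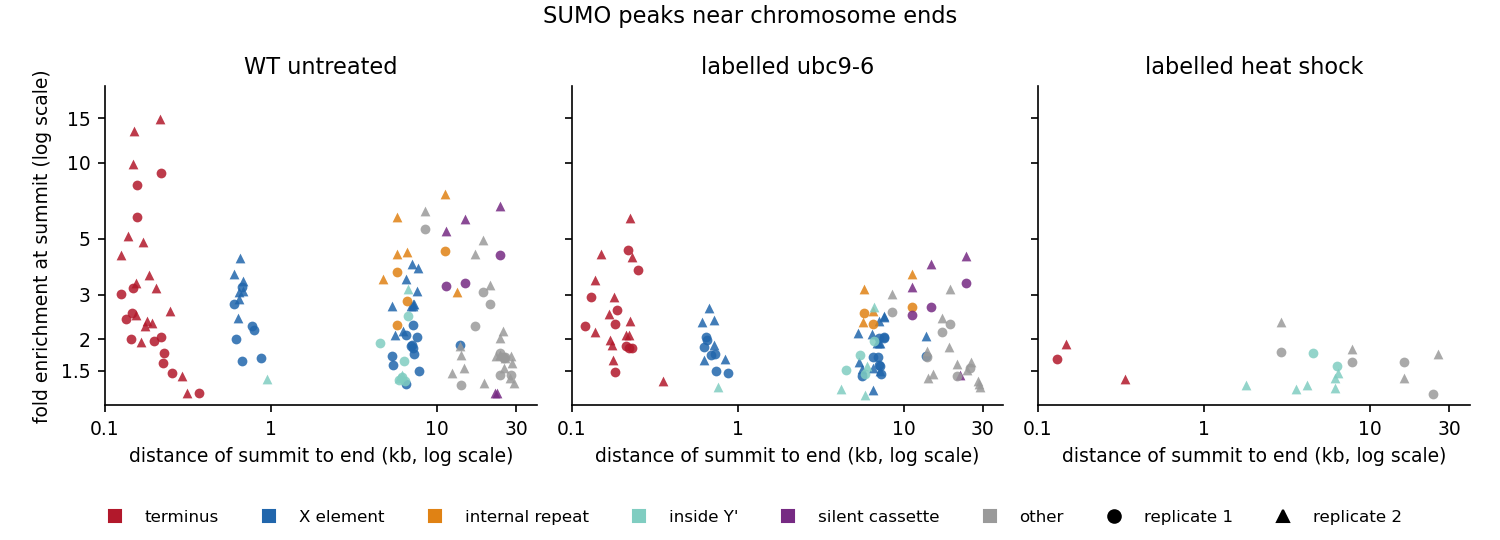
Fold enrichment at the summit (vertical axis, log scale) against distance of the summit to the chromosome end in kb (horizontal axis, log scale) for every end peak, with 1 panel per group, circles for replicate 1, triangles for replicate 2 and colours for the site class. WT untreated and the ubc9-6-labelled group show the tallest points among the termini at the far left, and X elements in 2 clusters, near the end at X-only ends and several kb inside where Y' lies outside them, while the lists labelled heat shock hold only 7 and 12 points, none above a fold enrichment of 2.34.

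The end peaks lay mostly in the telomere features themselves. In the WT untreated lists, 42 of 57 (73.7%) and 45 of 70 (64.3%) had their summit inside a feature, as had 32 of 43 (74.4%) and 41 of 60 (68.3%) in the ubc9-6-labelled lists. For the lists labelled heat shock the counts were 3 of 7 and 8 of 12. The features cover 140.7 kb and the rest of the 30 kb ends 819.3 kb. Per 100 kb of feature there were 29.8 and 32.0 peaks in WT untreated, 22.7 and 29.1 in the ubc9-6-labelled group, and 2.13 and 5.69 in labelled heat shock.

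Outside the features, the density was below that of the interiors in the WT untreated and ubc9-6-labelled lists. The rest of the 30 kb ends held 1.83 and 3.05 peaks per 100 kb in WT untreated, against 3.53 and 4.57 peaks away from tRNA genes in chromosome interiors. The ubc9-6-labelled lists held 1.34 and 2.32, against 2.68 and 3.49. For the lists labelled heat shock the value was 0.488 in both, against 0.207 and 0.423 in interiors. Over the 30 kb ends as a whole, peak density was above that of the interiors in each of the 6 lists, by 1.84 peaks per 100 kb on average (exact sign-flip permutation p = 0.0312, the smallest that 6 lists allow, adjusted p = 0.0625 over the 2 tests of this kind). With peaks in telomere features left out, this difference reversed to -1.13 peaks per 100 kb.

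End peaks were not the taller ones. Their median fold enrichment was 2.00 and 2.73 in WT untreated, against 2.70 and 2.34 for the other peaks away from tRNA genes. In the ubc9-6-labelled lists it was 1.88 and 2.03, against 2.51 and 2.23, and in those labelled heat shock 1.63 and 1.41, against 1.58 and 1.80. The direction was lower in 4 of 6 lists. The mean difference on the log2 scale was -0.18 (exact sign-flip permutation p = 0.188, adjusted p = 0.188).

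**Figure D2:**
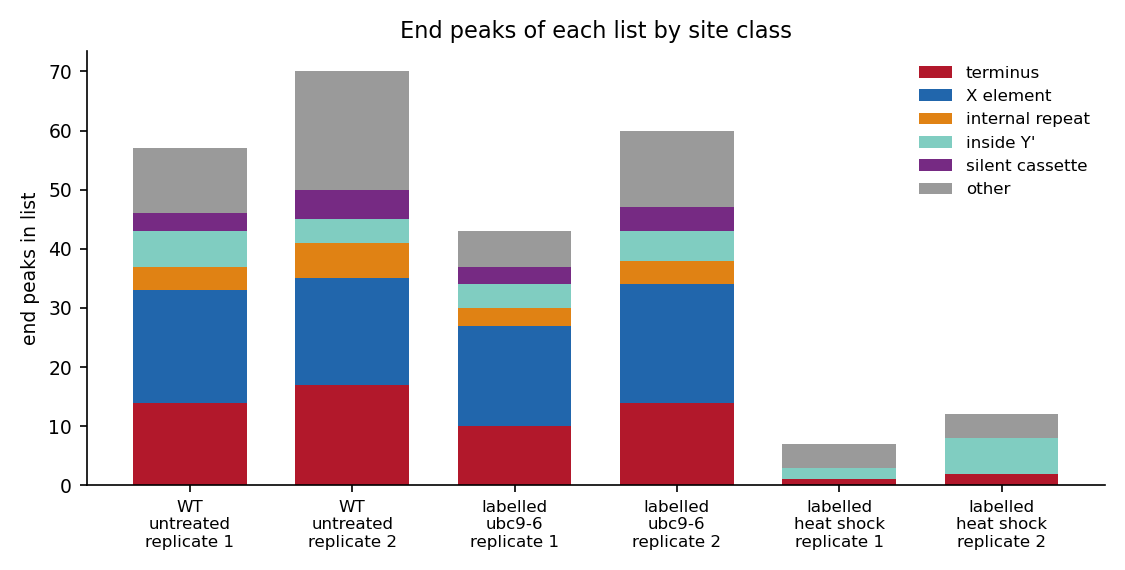
Number of end peaks (vertical axis) in each of the 6 lists, stacked by site class of the peak's own summit. X element summits number 19, 18, 17 and 20 in the WT untreated and ubc9-6-labelled lists and 0 in both lists labelled heat shock, which hold 1 and 2 terminus, 2 and 6 inside Y' and 4 and 4 other summits.

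X elements were the most numerous class within the telomere features. A peak interval overlapped the innermost 500 bp of the feature, taken here as its X element, at 24 and 26 of the 32 ends in WT untreated, at 20 and 24 in the ubc9-6-labelled lists and at 0 and 0 in those labelled heat shock. Among the 15 X-only ends, 10 had such a peak in both WT untreated lists and 8 in both ubc9-6-labelled lists. Among the 17 ends with Y', 14 and 12 had one. Peak intervals thus overlapped X elements both at the very end of the chromosome and several kb inside it. Some of these peaks had their summit elsewhere, as at TEL03L (883 bp inside the inner edge) and TEL12L (869 bp).

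The class rule admits X element summits up to 500 bp to either side of the inner edge. Within that range, they gathered just inside the edge. Over the 74 single X element peaks of the WT untreated and ubc9-6-labelled lists, they ranged from 81 bp outside that edge to 311 bp inside it, with a median of 136.5 bp inside (quartiles 88.5 and 171.75 bp). The merged regions take the summit of the peak with the best q-value. At the 7 X-only regions it lay 143 to 204 bp inside the inner edge of the feature (median 168 bp), which is 600 to 677 bp from the chromosome end. At the 12 regions with Y' it lay from 38 bp outside to 270 bp inside that edge (median 121 bp inside), and 5393 to 7632 bp from the end. The shared 15 bp stretch has 25 exact copies in the genome, 1 at each of 25 ends, and all of them lie 180 to 182 bp inside the inner edge. A peak interval, wherever its summit lay, covered 22 and 23 of these copies in WT untreated. The counts were 20 and 21 in the ubc9-6-labelled lists, and 0 and 0 in those labelled heat shock. Only the copies at TEL13R and TEL14R were under no peak in any list. An annotated ARS lay up to 100 bp from the summit at 9 of 19 X element regions, against 3.36% of windows tiled over the 30 kb ends.

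**Figure D3:**
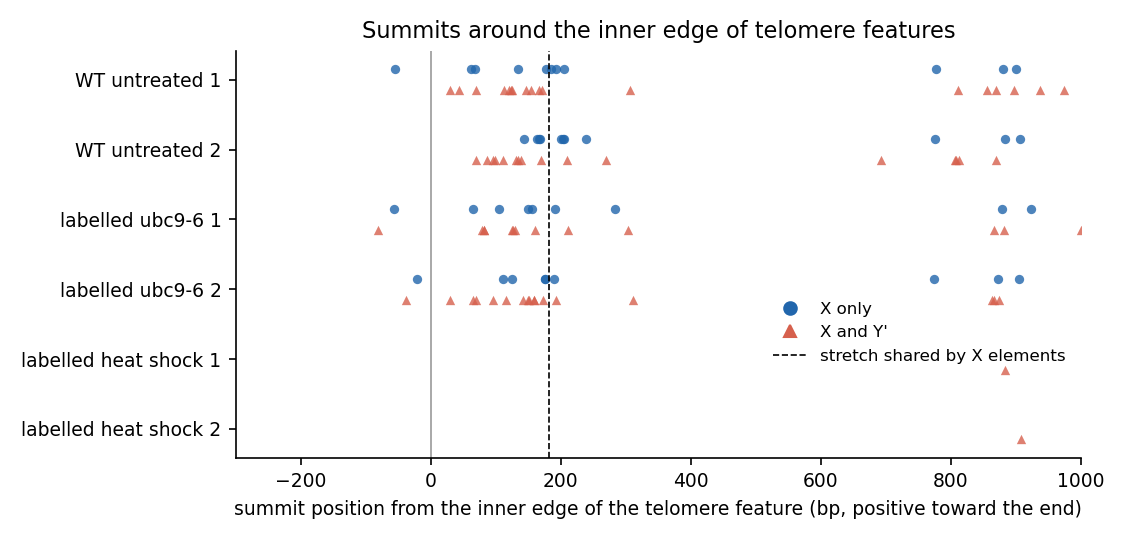
Position of end peak summits from the inner edge of the telomere feature in bp (horizontal axis, positive toward the chromosome end, grey line at the edge) in each of the 6 lists, with blue circles for X-only ends and red triangles for ends with X and Y'. In the WT untreated and ubc9-6-labelled lists X element summits lie mostly between the inner edge and the stretch shared by X elements (dashed line, 182 bp). A second group of summits lies farther toward the end, and the lists labelled heat shock show no summit near the stretch.

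Fold enrichments at X elements were moderate. In WT untreated replicate 1 the 19 X element peaks ranged from 1.33 to 3.22 (median 1.90), and in replicate 2 the 18 ranged from 2.07 to 4.20 (median 2.98). In the ubc9-6-labelled lists the 17 and 20 peaks had medians of 1.72 and 1.94. TEL10R had the highest X element fold enrichments in both WT untreated lists, namely 3.22 and 4.20 for WT untreated, against 1.98 and 2.67 for the ubc9-6-labelled group. At this end both WT values were above both ubc9-6-labelled values.

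Termini gave the tallest end peaks. TEL03L (chrIII:28-1493, an X-only end) had WT untreated fold enrichments of 9.13 and 14.9, against 4.50 and 6.06 in the ubc9-6-labelled group, with no peak in either list labelled heat shock. TEL08R (chrVIII:561974-562630) had 8.17 and 13.4, then 3.78 and 4.22, and in labelled heat shock replicate 2 a peak of 1.39. TEL14R (chrXIV:784043-784324) had 6.11 and 9.87, then 2.93 and 4.36. At all 3 of these ends the WT values lay above the ubc9-6-labelled values without overlap. The same held at 68.3% of the 284 regions away from tRNA genes with a peak in all 4 lists. TEL11R (chrXI:665753-666804) had 2.41 and 5.11, against 1.86 and 2.14, and these groups did not overlap. In ubc9-6-labelled replicate 1, however, the summit at TEL11R lay 628 bp from the end, in the X element class.

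These 4 were the terminus regions whose best summit lay inside telomeric repeat. The reference holds 359 bases of terminal repeat tract at TEL03L, 187 at TEL08R, 294 at TEL14R and 208 at TEL11R, and at most 153 at any other end. TEL04L, which has those 153, had no peak on its feature in any list, and neither had TEL01R, TEL07L and TEL13R, all of them X-only ends. How the length of repeat in the reference bears on the fold enrichment was not tested. The best summits of the other 13 terminus regions lay outside repeat tracts. The tallest of them was TEL12L (chrXII:14-461), with WT untreated fold enrichments of 3.19 and 4.86, against 2.62 and 2.93 in the ubc9-6-labelled group. Over the 55 single terminus peaks of the WT untreated and ubc9-6-labelled lists, summits lay 121 to 367 bp from the end (median 182 bp). The class rule itself allows at most 400 bp.

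Internal repeats formed a small class of tall peaks inside the Y' ends. The 2 tallest lay in TEL12L. The one 11215 bp from the end (chrXII:10951-12186) lay in a tract of 162 bp and had WT untreated fold enrichments of 4.49 and 7.49, against 2.70 and 3.62 in the ubc9-6-labelled group. The one 5756 bp from the end (chrXII:5436-6212) lay beside a tract of 62 bp and had 3.69 and 6.09, against 2.55 and 3.17. WT values lay above ubc9-6-labelled values at both. All 6 regions overlapped a peak in all 4 of these lists, but by their own summits the lists held 4, 6, 3 and 4 internal repeat peaks. At TEL06L and TEL12R only WT untreated replicate 2 had its summit by the tract. The regions' median fold enrichment of 2.56 and 4.38 in WT untreated was above that of the X element regions, 1.95 and 2.98.

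Of the 8 inside Y' regions, 3 and 4 had a peak in the WT untreated lists, with median fold enrichments of 1.42 and 1.43, the lowest of the classes there. The exception was in TEL12R, at 2.48 and 3.15. Its summit lay between YRF1-4 and YRF1-5, on the 15-mer found in the most terminus windows (10 of 17, 100 bp to each side of the summit). By their own summits, 2 of the 7 and 6 of the 12 end peaks of the lists labelled heat shock lay inside Y'. Several lay at the start of Y' helicase genes. Of the 8 YRF1 genes, 6 had an end peak summit at their promoter (500 bp upstream to 200 bp downstream of the start codon) in some list, though single lists held only 5, 2, 2, 3, 1 and 2. Of all 377 protein genes near ends, 7.16% had one in some list, these 6 included, and the YRF1 genes are near-identical copies. YRF1-6 had fold enrichments of 2.83 in WT untreated replicate 1 and 2.29 and 2.60 in the ubc9-6-labelled lists, and these are the internal repeat peak of TEL14L, whose summit in WT replicate 2 fell outside the promoter window. YRF1-1 had 1.38 and 1.41 in WT untreated with 1.45 in ubc9-6-labelled replicate 1 and a weaker peak in its replicate 2, and YRF1-8 had 1.42 and 1.44 in WT untreated and 1.40 in labelled heat shock replicate 2. YRF1-3, YRF1-5 and YRF1-7 had values from 1.37 to 1.64 in 1 or 2 lists each. None of the 6 had a summit at its promoter in all lists.

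Only 2 end regions had a peak in all 6 lists. The terminus of TEL15R (chrXV:1090707-1091290) had WT untreated fold enrichments of 3.01 and 4.29, 2.26 and 3.44 in the ubc9-6-labelled group and 1.67 and 1.91 in labelled heat shock. The lists labelled heat shock lay below the other 4. The merged region at the internal repeat of TEL06L (chrVI:4022-5904) had 1.93 and 3.47, then 1.51 and 1.62, then 1.77 and 1.32. The 1.62 was that of a separate peak of ubc9-6-labelled replicate 2, with its summit at 5358 in the X element class. Over the repeat tract that list had 1.27. The summits varied between lists. The tallest lay at 4556 and 4723 in WT untreated, and those of the lists labelled heat shock at 4526 and 4165, and WT replicate 2 alone had its summit in the repeat tract.

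The silent mating cassettes carried SUMO peaks at their silencers. HML and HMR hold unexpressed copies of the mating-type genes, and the E and I silencers beside them, each with an ARS, recruit the Sir proteins. At HML, the summit at ARS301 (chrIII:10779-12196) had WT untreated fold enrichments of 3.25 and 5.36, against 2.49 and 3.21 in the ubc9-6-labelled group. The summit at ARS302 (chrIII:13957-15113) had 3.34 and 5.98, against 2.69 and 3.96. The groups were just apart at ARS301, and at ARS302 they overlapped, since ubc9-6-labelled replicate 2 was above WT replicate 1.

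At HMR, the summit at ARS317 (chrIII:292330-293177) was the tallest of the cassettes, with WT untreated at 4.30 and 6.71 and the ubc9-6-labelled group at 3.33 and 4.28, which just missed overlapping. At ARS318 (chrIII:294369-295042) a weak peak was present in WT replicate 2 (1.22) and ubc9-6-labelled replicate 2 (1.44). A further peak between HMRA1 and HMRA2, which encode the silenced a1 and a2 proteins, was present in WT replicate 2 alone (1.23). The lists labelled heat shock held no end peak at either cassette. Each of the 6 lists had a peak beside HMR that the tRNA rule took out, at most 16 bp from a tRNA gene, with fold enrichments of 9.44 and 15.8 in labelled heat shock and 6.13 and 8.98 in WT untreated. In all, 4 of the 5 cassette regions had an annotated ARS up to 100 bp from the summit.

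Among the 25 other regions, 12 had their summit at a promoter and 6 inside a gene. IMD2, which encodes an IMP dehydrogenase of guanine nucleotide synthesis, was the tallest, with its summit 226 bp upstream of the start codon (chrVIII:553919-554501). It had WT untreated fold enrichments of 5.45 and 6.46, against 2.57 and 3.03 in the ubc9-6-labelled group, with no overlap between the groups. A near-identical gene, IMD1, lies at another end, so reads of the coding part may not be told apart. LYS1, the last enzyme of lysine synthesis (chrIX:420688-421163), had 3.08 and 4.94, against 2.31 and 3.16, and the groups overlapped. ZRT1, the high-affinity zinc transporter, had 2.75 and 3.27, against 1.43 and 1.59. CHA1, a serine deaminase gene that shares its upstream region with VAC17, had 2.26 and 4.34, against 2.13 and 2.42, and these overlapped. ZRT1 and CHA1 were named after their values were seen.

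**Figure D4:**
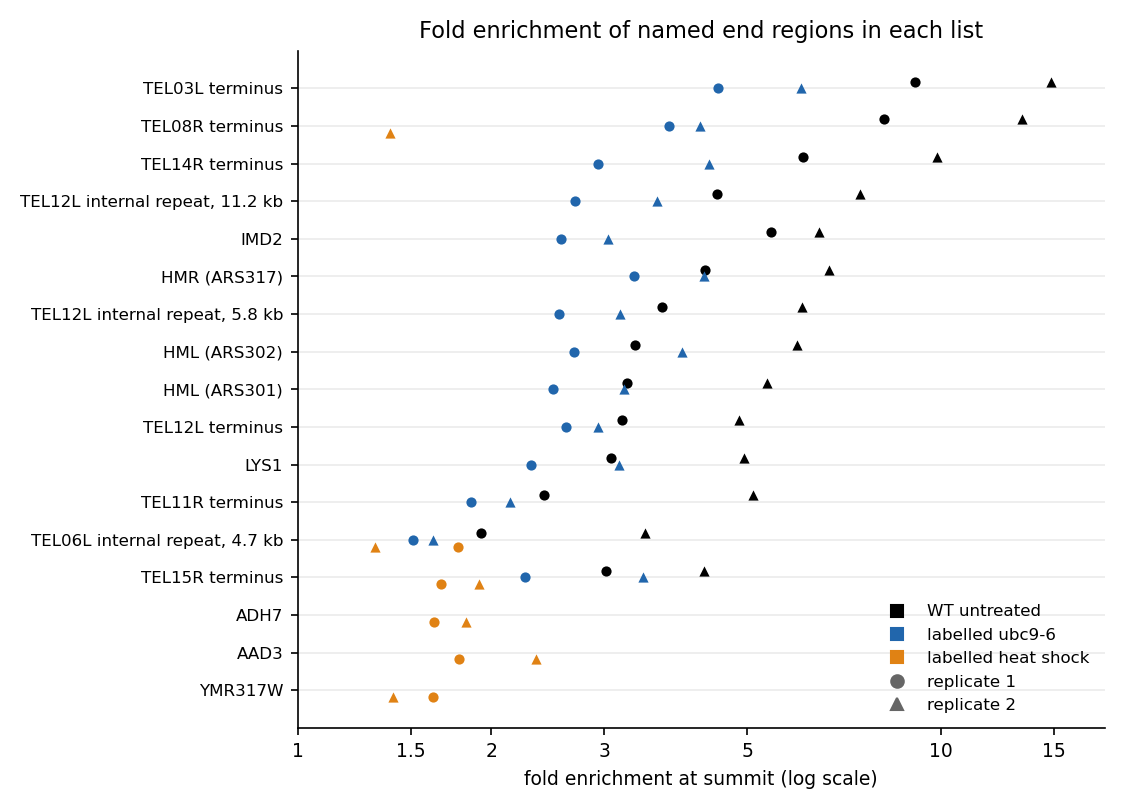
Fold enrichment at the summit (horizontal axis, log scale) in each list for the 12 end regions with the highest mean in WT untreated, the 2 regions with a peak in all 6 lists and the 3 regions found in both lists labelled heat shock and no WT untreated list, with black for WT untreated, blue for the ubc9-6-labelled group, orange for labelled heat shock, circles for replicate 1 and triangles for replicate 2. A missing point means that the list holds no peak there. The tallest regions, TEL03L, TEL08R and TEL14R, have both WT values (6.11 to 14.9) above both ubc9-6-labelled values (2.93 to 6.06).

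Of all 377 protein genes with their start codon in the 30 kb ends, 27 (7.16%) had an end peak summit at the promoter in some list, so a count of 0 or 1 in a family of this size is near the background. Of genes with their start codon in the 30 kb ends, 0 of 19 PAU, DAN and TIR cell wall genes, 0 of 11 COS genes, 0 of 3 FLO flocculin genes, 0 of 4 thiamine synthesis genes (THI5, THI11, THI12 and THI13), 0 of 7 iron uptake genes and 0 of 2 acid phosphatase genes had a summit at the promoter in any list. Of the sugar transport and use genes it was 1 of 20, the isomaltase gene IMA4, at 1.86 in ubc9-6-labelled replicate 2 alone. HXK1, which encodes hexokinase 1, had 1.46 in the same list alone. No ribosomal protein gene starts in the 30 kb ends, and 0 of the 4 heat-shock genes there had a promoter summit. FLO1 had summits inside its coding region, at 1.44 and 1.73 in WT untreated and 1.22 in labelled heat shock replicate 1, where the summit held 1257 fragments.

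In WT untreated, 53 end regions had a peak in both replicates. Of these, 41 (77.4%, Wilson 95% interval 64.5% to 86.5%) overlapped a region present in both ubc9-6-labelled lists. Over all 396 WT untreated regions away from tRNA genes the share was 72.2%, so the end regions were close to the background. The 41 comprised 15 of 16 X elements, 10 of 14 termini, 6 of 6 internal repeats, 2 of 3 inside Y', 3 of 3 at silent cassettes and 5 of 11 other regions. The other regions that were not retained were those at FLO1, CSS1, URA1, EGT2, DSE4 and HPF1. The termini were TEL06R, TEL07R, TEL12R and TEL16R, and the X element was TEL02R, and the inside Y' region was in TEL15R. CSS1 and HPF1 encode cell surface proteins, EGT2 and DSE4 act in separation of the daughter cell, and URA1 is an enzyme of pyrimidine synthesis.

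Of the same 53 regions, 2 (3.77%, Wilson 95% interval 1.04% to 12.8%) were retained in the lists labelled heat shock. This was again close to the 3.54% over all WT untreated regions away from tRNA genes. The 2 were the terminus of TEL15R and the merged region at the internal repeat of TEL06L. At TEL06L the summits of the lists labelled heat shock lay inside Y', and their peaks overlapped 0 and 0 internal repeat tracts. Where overlap of 50% of both intervals was asked, 0 regions were retained. A further 6 of the 53 had a peak in 1 of the lists labelled heat shock, and 45 had none. Without labelled heat shock replicate 1 the count retained was 6, and without replicate 2 it was 4. All intervals cover counting error only, and regions of one list share their library.

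Regions seen in a labelled group but not in WT untreated were few. In the ubc9-6-labelled lists, 1 of 42 end regions had no counterpart among the WT untreated regions, against 9.97% of all their regions away from tRNA genes. It was the terminus of TEL14L, which had a peak in WT untreated replicate 2 as well (2.25), besides 1.49 and 1.90 in the labelled lists. This count rested on single libraries, with 0 gained without WT untreated replicate 1 and 11 without ubc9-6-labelled replicate 1.

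In the lists labelled heat shock, 3 of 5 end regions had no WT untreated counterpart, against 23.1% (6 of 26) of all their regions away from tRNA genes, which include these 3. Without labelled heat shock replicate 1 the count gained was 6. None of the 3 had a peak in any WT untreated or ubc9-6-labelled list. AAD3, a putative aryl-alcohol dehydrogenase gene (chrIII:313566-313874, summit 175 bp upstream of the start codon), had fold enrichments of 1.78 and 2.34. ADH7, an NADPH-dependent alcohol dehydrogenase gene (chrIII:308721-308994, summit 214 bp upstream), had 1.63 and 1.83. YMR317W, an uncharacterized open reading frame (chrXIII:908277-908551, summit inside it), had 1.62 and 1.41. Each of these summits held at least 186 fragments. AAD3 and ADH7 lie close to each other near the right end of chromosome III. AAD3 was 1 of 5 AAD genes near ends and the only one with a summit at its promoter in any list. Of the 5 genes of glycolysis and ethanol metabolism near ends, ADH7 and HXK1 had one.

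Where a region had a peak in all 4 lists, its height could be compared. Of 41 such end regions, 40 had a lower mean fold enrichment in the ubc9-6-labelled lists than in WT untreated, with a median ratio of the means of 0.689 (quartiles 0.622 and 0.766). Both labelled values lay below both WT values in 20 of the 41 (48.8%), and above in 0. Over all 284 regions away from tRNA genes the share below was 68.3%, and the median ratio was 0.588 at the 243 regions outside the 30 kb ends. The share at the end regions was thus below the background, and this difference was not tested. By class, the median ratio was 0.720 at termini, 0.718 at X elements, 0.599 at internal repeats, 0.887 at the 2 inside Y' regions, 0.691 at silent cassettes and 0.682 at other regions. The lowest single ratio was that of the terminus of TEL08R, 0.372.

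Peaks lay on both sides of the 30 kb limit. The end peak farthest from an end lay at 29007 bp, in FMP27, with a fold enrichment of 1.35 in WT untreated replicate 2 alone. Just outside, at 30710 to 30720 bp from the left end of chromosome III and nearest to RDT1, a peak was present in both WT untreated lists (3.67 and 6.57) and both ubc9-6-labelled lists (3.82 and 4.51). The tRNA rule took out 4 peaks of each list, all at most 24 bp from a tRNA gene, and the nearest end peak kept lay 678 bp from one.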

How the data were processed

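SUMO ChIP-seq peak lists of 6 immunoprecipitates were analysed, and the 6 inputs entered only through peak calling. The authors trimmed paired-end reads, used Bowtie2 2.3.5 for alignment to sacCer3, and called peaks separately for every immunoprecipitate, with its input as control, in MACS2 2.1.1.20160309 (q-value below 0.05). Each deposited list gives peak coordinates, the summit's fold enrichment (the ratio to local background, pseudocount 1) and the p-value and q-value on the −log10 scale. Placement of multi-mapping reads is not given in the sources used here.

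End peaks were taken by summit position with the RefSeq annotation of R64, the assembly that sacCer3 names. X elements are not annotated on their own there, so the innermost 500 bp of each telomere feature stood for X, and telomeric tracts were runs of C1-3A of 20 bp or more. A region was kept for a group when overlapping peaks (1 bp or more) came from both replicates. It was retained when a region of the other group overlapped it, and gained when no WT untreated region did. Fragments at a summit were solved from fold enrichment and p-value under the Poisson model, and 99.6% of end peaks gave a number within 0.05 of a whole one. Lists were compared by exact permutation or sign-flip tests (two-sided), with Benjamini-Hochberg adjustment over the 2 sign-flip tests, and all other counts carry no test. Labels call the replicates independent but name no cultures, so p-values measure the spread between these libraries. Motifs were sought up to 50 bp from each summit on both strands.

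Named regions were the 12 with the highest mean fold enrichment in WT untreated, the 6 highest at telomere features, those found in a labelled group without a WT peak, those in all groups, HML and HMR, and those at the listed gene families. The X element examples, the shared stretch, ZRT1, CHA1 and the regions not retained were named after their values were seen. Members, lists and classes were chosen with earlier results of these data known. Alternatives were a fold enrichment of 2 or more, equal list lengths, a 15 kb window, 50% overlap, a peak in either replicate, 1000 bp from tRNA genes, no telomere features, each replicate left out and a replicate block. The functions were tested on simulated data. Python 3.11.15, numpy 2.4.6 and scipy 1.17.1 were used.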

Additional observations from a re-analysis of the deposited data

How the results depend on the processing

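Of 136 recomputed values, 6 reversed and 27 counts moved by more than 1.5 times. The other 103 were differences that kept their direction and side of the threshold, whatever their size, or counts that stayed within 1.5 times. Among them the density difference was 0.69 with a fold enrichment of 2 or more and 4.49 in a 15 kb window, and the peak difference for labelled heat shock was -16 without telomere features. With a fold enrichment of 2 or more, WT untreated kept 29 end regions, of which 18 were retained in labelled ubc9-6 and 0 in labelled heat shock, 0 were gained in labelled heat shock, and X elements with a peak in both replicates numbered 12 in WT untreated and 7 in labelled ubc9-6. The median fold enrichment could not be computed there, since 1 list had no end peak left. With only the best 278 peaks of each list, labelled heat shock exceeded WT untreated by 2.5 end peaks and 0.899 percentage points, the density difference was -0.427 per 100 kb, WT untreated had 2 end regions, with 1 retained in labelled ubc9-6 and 0 in labelled heat shock, 0 were gained in labelled ubc9-6, and X elements numbered 1 and 0. So the lower number and share in the lists labelled heat shock did not hold at equal list length, and kept their direction under the other settings. At equal list length, labelled heat shock replicate 1 kept all its nuclear peaks, while WT untreated lost its weaker ones. In a 15 kb window the share in labelled ubc9-6 was 0.173 points above WT untreated. At 50% overlap, 9 regions were gained in labelled ubc9-6, 0 retained and 5 gained in labelled heat shock. With a peak in either replicate, 4 were gained in labelled ubc9-6, 8 retained and 6 gained in labelled heat shock. Without telomere features, WT untreated had 14 end regions, with 8 retained in labelled ubc9-6 and 0 in labelled heat shock, and the density difference was -1.13. The cause of these changes was not tested.

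Leaving out each replicate in turn, the share difference for labelled ubc9-6 ranged from -0.982 to 0.314, regions gained in labelled ubc9-6 from 0 (without WT untreated replicate 1) to 11 (without labelled ubc9-6 replicate 1), regions retained in labelled heat shock from 2 to 6 and those gained there from 3 to 6. The replicate numbers do not pair the samples by any label, and with 2 numbers the check of shared deviation (r = 0.57 between WT untreated and labelled ubc9-6 over 284 regions) is only a hint. With the replicate block the differences stayed at -12 and -54 peaks and -0.334 and -5.01 points, with exact permutation p of 0.5, 0.5, 1 and 0.5. Taken within replicate numbers, a comparison chosen after seeing the data, the ubc9-6-labelled value was lower in both pairs at 37 of the 41 end regions with a peak in all 4 lists (90.2%), against 20 unpaired, and at 90.8% of all 284 regions. The block was not run for the other counts with no test. The overlap and either-replicate settings touch only the region counts.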
